A study of Mus musculus with 2 samples.

Results

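The p53 pathway was examined here through 10 genes, Trp53, which encodes the transcription factor p53, and 9 of its direct targets, Cdkn1a, Mdm2, Ccng1, Bax, Bbc3, Pmaip1, Phlda3, Trp53inp1 and Eda2r. The 10 genes were listed by name as p53 and well known direct targets, with earlier results of these data known, and all 10 were found by their Ensembl identifiers among the 19720 genes listed. RNA sequencing was made of telencephalic tissue of C57BL/6 mouse embryos of 2 genotypes, H2AZcKO, a conditional knockout of the histone variant H2A.Z, and H2AZfl/fl, with floxed alleles of the same gene and a title that calls it wild type. No source used here names the Cre driver or the cells in which it acts. The titles give embryonic day 16, whereas the stage field gives embryonic day 12. Triplicates are mentioned in the design text, but 1 column of counts per genotype was deposited, so no test between genotypes was possible. Whether a column pools several embryos or libraries is not stated, and each column is called a library below.

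The p53 protein is held at a low level by the ubiquitin ligase MDM2, whose gene p53 itself activates. After DNA damage or other stress p53 escapes this control and binds response elements near its target genes, which stop the cell cycle, start the mitochondrial death pathway or feed back on p53. In the embryonic forebrain, p53 is known for removing neural progenitors with damaged DNA or failed mitosis. Much of its control acts on the protein, so transcript levels of the targets, more than of Trp53, are the usual readout.

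Sequences upstream of the genes were searched for the p53 half-site consensus, the block of which a response element holds a pair. RefSeq windows on GRCm38.p6, running from 250 bases before to 50 bases after each annotated transcript start, matched 8 of the 10 genes by symbol. The consensus reads the same on both strands. It was found in 5 of these 8 genes, against 9.55% of 27025 genes with such windows and 12 of 51 further p53 pathway targets (23.5%). The 10 genes were listed as p53 and known direct targets, so a higher share than among all genes may follow from that choice. The 5 genes with a match were Trp53, Mdm2, Ccng1, Cdkn1a and Bax. They are shown because they carry this shared feature, with half-sites in capitals, 5′ to 3′ on the strand of the gene. Cdkn1a was the single gene of the 8 with a pair of half-sites at most 13 bases apart, a feature of 24 of all 32851 windows (0.0731%). The whole window with the pair is given. It covers chr17:29090729-29091028 on the plus strand, with half-sites that begin 73 and 51 bases before the start of this window's transcript. Another Cdkn1a window, at a start further downstream (chr17:29093519-29093818, plus strand), held no match. Only exact matches are in capitals, so stretches that differ from the consensus at a single base stay in lower case. Such a stretch, tgacatgttc, directly follows the Cdkn1a half-site GAACATGTCT, with no base between them. The exact search did not count these neighbours as a pair, so the counted pair is not the only candidate in this window. The stretches of the others are at chr11:69580259-69580318 (plus strand, Trp53), chr10:117710910-117710969 (minus strand, Mdm2), chr11:40755437-40755496 (minus strand, Ccng1) and chr7:45467065-45467124 (minus strand, Bax).
Cdkn1a: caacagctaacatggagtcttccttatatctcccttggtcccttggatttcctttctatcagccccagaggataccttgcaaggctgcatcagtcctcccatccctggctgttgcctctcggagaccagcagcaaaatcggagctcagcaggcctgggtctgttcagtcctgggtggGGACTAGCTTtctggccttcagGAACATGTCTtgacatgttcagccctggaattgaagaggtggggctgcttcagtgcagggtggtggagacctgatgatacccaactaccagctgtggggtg
Trp53: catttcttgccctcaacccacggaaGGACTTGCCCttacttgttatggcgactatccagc
Mdm2: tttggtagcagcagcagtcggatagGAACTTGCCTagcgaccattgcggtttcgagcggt
Ccng1: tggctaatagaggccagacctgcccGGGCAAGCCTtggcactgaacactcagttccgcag
Bax: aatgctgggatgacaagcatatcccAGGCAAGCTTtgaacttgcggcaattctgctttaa

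The half-sites of Trp53, Mdm2, Ccng1 and Bax begin 75, 186, 185 and 201 bases before the start. Best known response elements of Mdm2 lie in its first intron, outside these windows. A match describes the letters and was not measured as a bound site. Windows of Phlda3, Bbc3 and Eda2r held no match to the consensus. The 5 genes with a half-site had log2 ratios of knockout to control from -0.10 to 0.34, as described below. The 3 without a match in these windows were at -0.03 (Bbc3), -0.01 (Eda2r) and 0.71 (Phlda3). Sequence outside the windows was not searched, and a link between half-sites and ratios was not tested.

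The libraries held 9028523 reads in genes (knockout) and 8474545 (control). The targeted gene, H2afz, had 535 reads in the knockout library, against 1152 in the control library, a log2 ratio of -1.16 (-1.31 to -1.01), and its paralog H2afv had 1095 and 1009 reads. Levels are CPM after TMM scaling. The intervals printed with a ratio are exact 95% binomial ones (Clopper-Pearson), taken from the share of a gene's reads found in the knockout library. They cover counting error only and say nothing of the spread between embryos. Genes with at least 20 reads in both libraries together are called measured (14366 genes), and a measured gene 1.5-fold or more higher or lower is called apart. The 2 libraries differed in markers of tissue around the cortex. Of 11 measured choroid plexus markers 11 were apart and lower in the knockout library, with a summed level of 38.3 CPM, against 868 CPM in the control library, and Calml4 and Cldn2 were at 0 reads in the knockout. Of 11 meningeal markers 10 were apart and lower, with a sum of 65.6 and 405 CPM in knockout and control. Of 10 diencephalic markers 6 were apart and higher, with a sum of 221 and 92.7 CPM, and Shox2 was at 0 reads in the control. Endothelial markers summed to 187 and 218 CPM in knockout and control (2 of 10 apart, both lower, and Slco1a4 at 0 reads in the knockout), microglial markers to 58.3 and 70.7 CPM (2 of 9 lower) and erythroid markers to 267 and 325 CPM (1 of 8 lower). The labels give telencephalic tissue and, for the dissection, cerebral cortex. Markers of the dorsal telencephalon, from which the cortex forms, were present, with a sum of 3540 and 3616 CPM in knockout and control and 0 of 10 apart. Neuronal markers summed to 8635 and 7782 CPM (1 of 10 apart, higher) and radial glial markers to 1854 and 1941 CPM (0 of 10 apart). Intervals excluded a ratio of 1 upward for 8 of 10 neuronal markers and downward for 0. For radial glial markers they did so upward for 1 of 10 and downward for 4, and for dorsal telencephalic markers for 3 and 6. Over all measured genes the shares were 12.5% upward and 9.30% downward, not compared at like depth. The part of these tissues in the p53 pathway values was not tested, and in bulk tissue fewer cells of a type and less RNA per cell cannot be told apart.

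Transcripts of p53 and most of its targets were at nearly the same level in the knockout and control libraries. All 10 genes were measured, with 1 of them, Phlda3, apart and higher in the knockout library and 0 lower. Among all measured genes 3.52% were at least 1.5-fold higher and 5.43% lower. The median log2 ratio of the 10 genes was 0.0019 and that of all measured genes 0.0018. The interval excluded a ratio of 1 upward for 1 of 10 genes, again Phlda3, against 12.5% of all measured genes, and downward for 0 of 10, against 9.30%. For 6 of 10 genes the whole interval lay within 1.5-fold either way, against 64.4% of all measured genes, so a 1.5-fold difference lies outside their counting error. These were Trp53, Mdm2, Ccng1, Trp53inp1, Bax and Bbc3. Counts of 0 or 1 among 10 genes lie near these background shares, and nothing particular to the pathway is read from them.

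**Figure D1:**
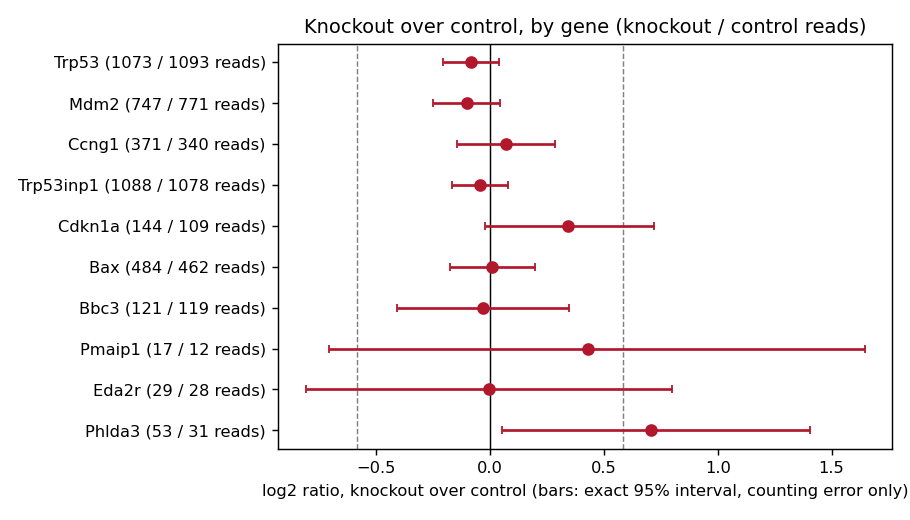
Log2 ratio of knockout over control for p53 and 9 direct targets, with read counts of both libraries in the labels. Bars are exact 95% intervals for counting error, dashed lines mark 1.5-fold. Phlda3, at 0.71, is the single gene beyond the dashed lines, and 6 genes have whole intervals between them.

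Trp53 itself (chromosome 11, 69580359 to 69591873; positions are those of the deposited table, on GRCm38) had 1073 reads in the knockout library and 1093 in the control library, or 120 and 127 CPM. The log2 ratio was -0.08 (-0.21 to 0.04), which is 1.06-fold lower in the knockout with an interval from 1.15-fold lower to 1.03-fold higher. The libraries do not differ in Trp53 beyond counting error.

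The feedback genes were level as well. Mdm2 (chromosome 10, 117688888 to 117710758), the ubiquitin ligase that marks p53 for destruction, had 747 reads in the knockout library and 771 in the control library, or 83.7 and 89.9 CPM. Its log2 ratio was -0.10 (-0.25 to 0.04), the lowest of the 10. Ccng1 (chromosome 11, 40748552 to 40755311), which encodes cyclin G1, an atypical cyclin that recruits a phosphatase to MDM2, had 371 and 340 reads in knockout and control, or 41.6 and 39.6 CPM. Its log2 ratio was 0.07 (-0.15 to 0.29). Trp53inp1 (chromosome 4, 11156431 to 11174379), whose product promotes activating phosphorylation of p53 and also acts in autophagy, had 1088 and 1078 reads in knockout and control, or 122 and 126 CPM. Its log2 ratio was -0.04 (-0.17 to 0.08). With 711 to 2166 reads per gene in both libraries together, these 3 genes and Trp53 are the most precisely measured of the 10 beside Bax.

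Cdkn1a (chromosome 17, 29090979 to 29100722) encodes p21, the inhibitor of cyclin-dependent kinases through which p53 stops the cell cycle. Its count was 144 reads in the knockout library and 109 in the control library, or 16.1 and 12.7 CPM. The knockout value is 1.27-fold higher, a log2 ratio of 0.34, but the interval from -0.02 to 0.72 takes in a ratio of 1 and also one above 1.5-fold. By rank its ratio was 1139 from the top of 14366 measured genes.

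The intervals of Bax, Bbc3 and Pmaip1, 3 genes of the mitochondrial death pathway, took in a ratio of 1. Bax (chromosome 7, 45461695 to 45466898), whose product forms pores in the outer mitochondrial membrane, had 484 and 462 reads in knockout and control, or 54.3 and 53.9 CPM, a log2 ratio of 0.01 (-0.18 to 0.20). Bbc3 (chromosome 7, 16309616 to 16318205) encodes PUMA, a BH3-only protein that sets off BAX. Its reads numbered 121 in the knockout library and 119 in the control library, or 13.6 and 13.9 CPM, a log2 ratio of -0.03 (-0.41 to 0.34). Pmaip1 (chromosome 18, 66458604 to 66465550) encodes NOXA, a BH3-only protein that blocks the survival factor MCL1. It was near the read minimum with 17 and 12 reads in knockout and control, or 1.91 and 1.40 CPM, and its log2 ratio of 0.43 has an interval from -0.71 to 1.64. At this depth the interval of Pmaip1 runs from 1.63-fold lower to 3.13-fold higher.

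Eda2r and Phlda3 act at the cell surface and its membrane. Eda2r (chromosome X, 97333840 to 97377216), a receptor of the tumour necrosis factor family for ectodysplasin A2, had 29 and 28 reads in knockout and control, or 3.25 and 3.26 CPM. Its log2 ratio of -0.01 has an interval from -0.81 to 0.80, which takes in values from 1.75-fold lower to 1.74-fold higher. Phlda3 (chromosome 1, 135766119 to 135769136) encodes a small pleckstrin homology domain protein that competes with AKT for membrane lipids. It counted 53 reads in the knockout library and 31 in the control library, or 5.94 and 3.61 CPM, which is 1.63-fold higher in the knockout (1.04-fold to 2.65-fold). Its log2 ratio of 0.71 (0.05 to 1.41) was the highest of the 10 and ranked 334 among 14366 measured genes. With a 99% interval, from -0.14 to 1.62, it was no longer beyond counting error.

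Per kilobase of exon, the order of the 10 genes was nearly the same in both libraries. In the knockout library Bax was highest at 34.4 CPM per kb, followed by Trp53 at 29.7, Trp53inp1 at 18.8, Mdm2 at 16.5 and Ccng1 at 11.8 CPM per kb. Bbc3 at 6.39, Cdkn1a at 4.54 and Phlda3 at 3.81 CPM per kb formed a middle group, and Pmaip1 at 0.698 and Eda2r at 0.552 CPM per kb were lowest. The control library had Bax at 34.2, Trp53 at 31.5, Trp53inp1 at 19.4, Mdm2 at 17.7, Ccng1 at 11.3, Bbc3 at 6.53, Cdkn1a at 3.58, Phlda3 at 2.32, Eda2r at 0.554 and Pmaip1 at 0.512 CPM per kb. Pmaip1 and Eda2r thus trade the last 2 places. Exact Poisson 95% intervals of neighbours overlapped for Bax and Trp53, for Cdkn1a and Phlda3, and for Pmaip1 and Eda2r in both libraries, for Bbc3 and Cdkn1a in the knockout library, and for Trp53inp1 and Mdm2 in the control library. Exon length was the union of all GENCODE M21 exons of a gene, so levels per kb depend on which isoforms are present.

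**Figure D2:**
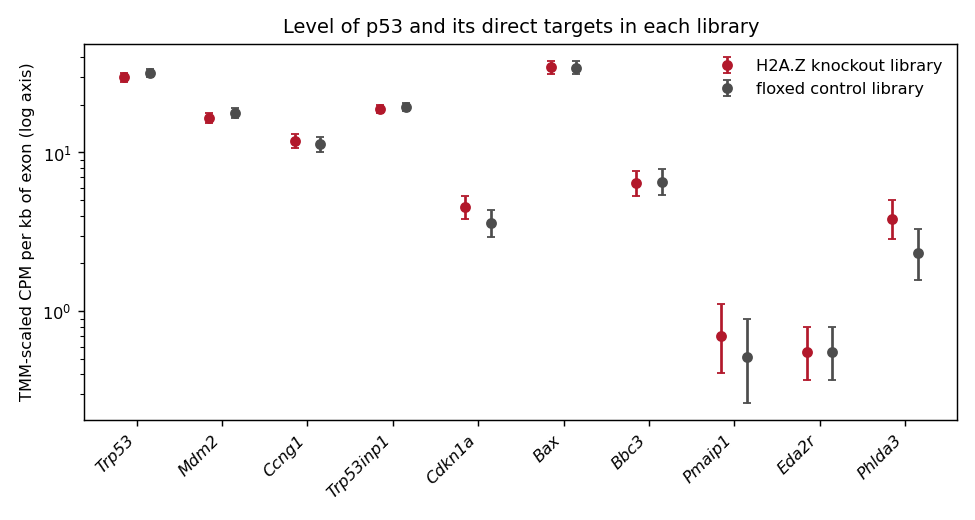
Level of each gene in TMM-scaled CPM per kb of exon (log axis), knockout library in red and control library in grey. Bars are exact Poisson 95% intervals for counting error. Bax and Trp53 are highest and Pmaip1 and Eda2r lowest in both libraries.

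Ratios between a pair of genes of the same library do not depend on scaling, and 10 such pairs were compared, with pairs picked after the single genes had been seen and intervals not adjusted for their number. Mdm2 had 0.696 reads per Trp53 read in the knockout library and 0.705 in the control library, a quotient of 0.987 (exact 95% interval 0.864 to 1.13). Mdm2 to Mdm4, which encodes the related inhibitor of p53, was also level, at 0.478 and 0.493 reads per read and a quotient of 0.969 (0.856 to 1.10). Cdkn1a had 0.134 reads per Trp53 read in the knockout library and 0.0997 in the control library, a quotient of 1.35 (1.03 to 1.77). Against Cdkn1b, the paralog that encodes p27, the Cdkn1a quotient was 1.37 (1.05 to 1.78). Both intervals lie above 1, whereas that of Cdkn1a alone does not. Both quotients share the Cdkn1a reads, and both partners had slightly lower values in the knockout library. The log2 ratio was -0.08 (-0.21 to 0.04) for Trp53 and -0.10 (-0.20 to -0.008) for Cdkn1b.

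For 3 pairs of a death gene and a survival gene, the interval of the quotient took in 1. Bax to Bcl2, a survival gene, was 1.29 reads per read in the knockout library and 1.35 in the control library, a quotient of 0.958 (0.785 to 1.17). Bax to Bcl2l1, the gene of BCL-XL, had a quotient of 0.905 (0.773 to 1.06), and Bbc3 to Mcl1, another survival gene, one of 0.989 (0.753 to 1.30). Bax to Bak1, the other pore-forming gene, stood at 3.69 and 2.52 reads per read in knockout and control, a quotient of 1.46 (1.12 to 1.91), with Bak1 lower as given below and Bax level. Ccng1 to its paralog Ccng2 was at 1.09 (0.915 to 1.29) and Phlda3 to its paralog Phlda1 at 1.32 (0.756 to 2.33), both with intervals that take in 1.

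**Figure D3:**
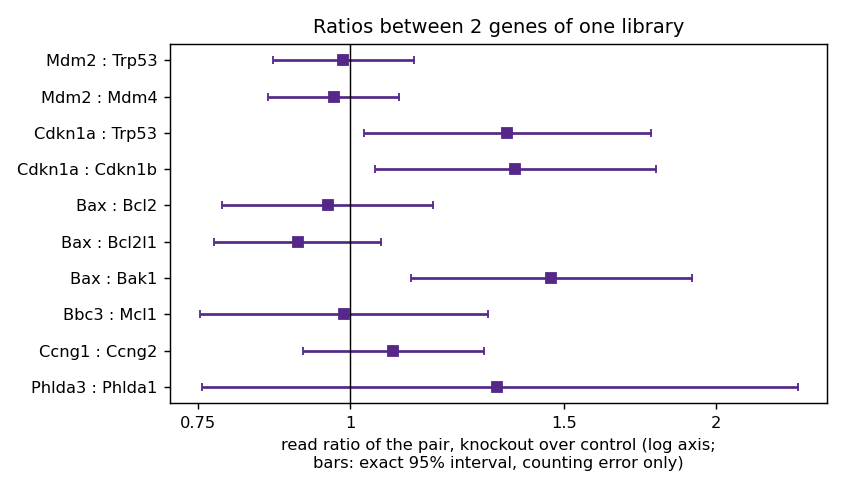
Read ratio of each pair of genes in the knockout library divided by that in the control library (log axis), with exact 95% intervals for counting error. The intervals of Cdkn1a to Trp53, Cdkn1a to Cdkn1b and Bax to Bak1 lie above 1, and the other 7 take in 1.

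The wider pathway was described with 10 lists of 164 genes in all, of which 157 had a row and 150 were measured. Of these, 3 were apart and higher in the knockout library (2.00%) and 4 lower (2.67%), and the median log2 ratio was 0.02. Intervals excluded a ratio of 1 for 17 higher genes (11.3%) and 12 lower genes (8%), shares near those of all measured genes given above. Scaled by library total, which lowers every log2 ratio by 0.03, these were 9 higher and 20 lower, and over all measured genes 1291 higher and 1786 lower. The lists overlap, and some of their genes are relatives of targets.

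Among the p53 family and its regulators, 0 of 28 measured genes were apart and the median log2 ratio was 0.06. Trp73, which encodes p73, a p53 relative active in Cajal-Retzius cells and choroid plexus, had 232 reads in the knockout library and 296 in the control library, a log2 ratio of -0.41 (-0.66 to -0.16). Prkdc, which encodes the catalytic subunit of a DNA damage kinase, was at -0.25 (-0.47 to -0.04). Ppp1r13l, the gene of a p53 inhibitor, was at -0.20 (-0.62 to 0.21) and Sirt1, which encodes a deacetylase that acts on p53, at 0.19 (-0.04 to 0.43).

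Further cell cycle genes of the p53 response had 1 of 12 measured genes apart and higher, 1 lower, and a median log2 ratio of 0.02. Plk3, a polo-like kinase gene, had 118 reads in the knockout library and 72 in the control library, a log2 ratio of 0.65 (0.22 to 1.10). Its relative Plk2 had 1333 and 1031 reads in knockout and control, at 0.31 (0.20 to 0.43). Pvt1, a long noncoding RNA gene, had 9 and 22 reads in knockout and control, at -1.30 (-2.65 to -0.17), and Sfn, which encodes the 14-3-3 sigma protein, 22 and 16 reads, at 0.39 (-0.59 to 1.43).

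Further apoptosis genes had 0 of 14 measured genes apart and a median log2 ratio of 0.03. Pidd1, the scaffold gene of the complex that activates caspase-2, had 127 reads in the knockout library and 181 in the control library, at -0.57 (-0.91 to -0.23). Bid, a BH3-only gene, had 150 and 104 reads in knockout and control, at 0.47 (0.10 to 0.85). Casp8, the initiator caspase gene of death receptors, was at -0.55 (-1.38 to 0.24) and Tnfrsf10b, the receptor gene for the ligand TRAIL, at -0.33 (-1.29 to 0.61).

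Among 11 measured repair genes 1 was apart, and the median log2 ratio was 0.09. Rad51c, a homologous recombination gene, had 94 reads in the knockout library and 57 in the control library, at 0.66 (0.18 to 1.17). Polk and Polh, genes of translesion DNA polymerases, were at -0.39 (-0.88 to 0.08) and 0.28 (-0.06 to 0.63), and Fancc, a Fanconi anaemia gene, at 0.16 (-0.25 to 0.58).

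Metabolic and antioxidant genes had 0 of 20 measured genes apart and higher and 2 lower, with a median log2 ratio of 0.00078. Pltp, the phospholipid transfer protein gene, had 67 reads in the knockout library and 111 in the control library, at -0.78 (-1.24 to -0.33), and Dcxr, a sugar reductase gene, 9 and 17 reads, at -0.94 (-2.32 to 0.27). Gls2, a glutaminase gene, was at 0.51 (-0.72 to 1.84) and Sesn2, a sestrin gene that restrains mTOR signalling, at -0.40 (-0.85 to 0.04).

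The BCL2 family and caspases had 1 of 22 measured genes apart and a median log2 ratio of 0.01. Bak1 had 131 reads in the knockout library and 183 in the control library, at -0.54 (-0.87 to -0.21), and Bmf, a BH3-only gene, was at -0.41 (-0.76 to -0.06). Endog, a mitochondrial nuclease gene, was the gene apart, with 26 and 16 reads in knockout and control and an interval that takes in 0 (0.63, -0.31 to 1.64). Bid, given above, completed the 4 furthest from 0.

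Of 20 genes that the DREAM complex, a repressor that p21 helps to form, is known to silence, 0 were apart, against 3.52% of all measured genes apart and higher and 5.43% lower. For 20 of 20 the whole interval lay within 1.5-fold, against 64.4% of all measured genes, and for 1, Ccnb1, the interval excluded a ratio of 1. These 20 genes had 311 (Cdc25c) to 2035 (Ccna2) reads in both libraries together, whereas measured genes start at 20 reads. More reads give narrower intervals, so the 2 shares are not compared at like depth. Their median log2 ratio was -0.04. Ccnb1, the gene of a mitotic cyclin, had 559 and 445 reads in knockout and control, at 0.27 (0.09 to 0.46), and its relative Ccnb2 was at -0.21 (-0.44 to 0.01). E2f1, an activator of S phase genes, was at 0.18 (-0.07 to 0.44) and Cdc20, an activator of mitotic exit, at -0.16 (-0.34 to 0.02).

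Inhibitors of cyclin-dependent kinases and G1 cyclins had 0 of 17 measured genes apart and a median log2 ratio of 0.02. Ccnd1, the gene of cyclin D1, had 678 reads in the knockout library and 484 in the control library, at 0.43 (0.26 to 0.60), while Ccnd3 was at -0.28 (-0.53 to -0.03). Ccne2, a cyclin E gene, was at -0.26 (-0.57 to 0.06) and Cdk6, the partner kinase of D cyclins, at 0.19 (0.03 to 0.35).

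Relatives of Eda2r and of its ligand had 1 of 8 measured genes apart, and a median log2 ratio of -0.19. Edar, the receptor gene for ectodysplasin A1, had 8 reads in the knockout library and 17 in the control library, at -1.10 (-2.56 to 0.15). Tnfrsf1a, a tumour necrosis factor receptor gene, was at -0.44 (-0.89 to 0.01), and Edaradd, the adaptor gene of Edar, at -0.42 (-1.15 to 0.29). Tnfrsf19, a receptor gene of the same family, had 694 and 823 reads in knockout and control, at -0.30 (-0.45 to -0.15). On the list of paralogs of the 10 genes, 0 of 9 measured genes were apart, with a median of -0.05. Beside Bak1 and Trp73, the furthest from 0 were Bok, a relative of Bax, at 0.34 (0.05 to 0.62) and Phlda1 at 0.31 (-0.12 to 0.75).

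**Figure D4:**
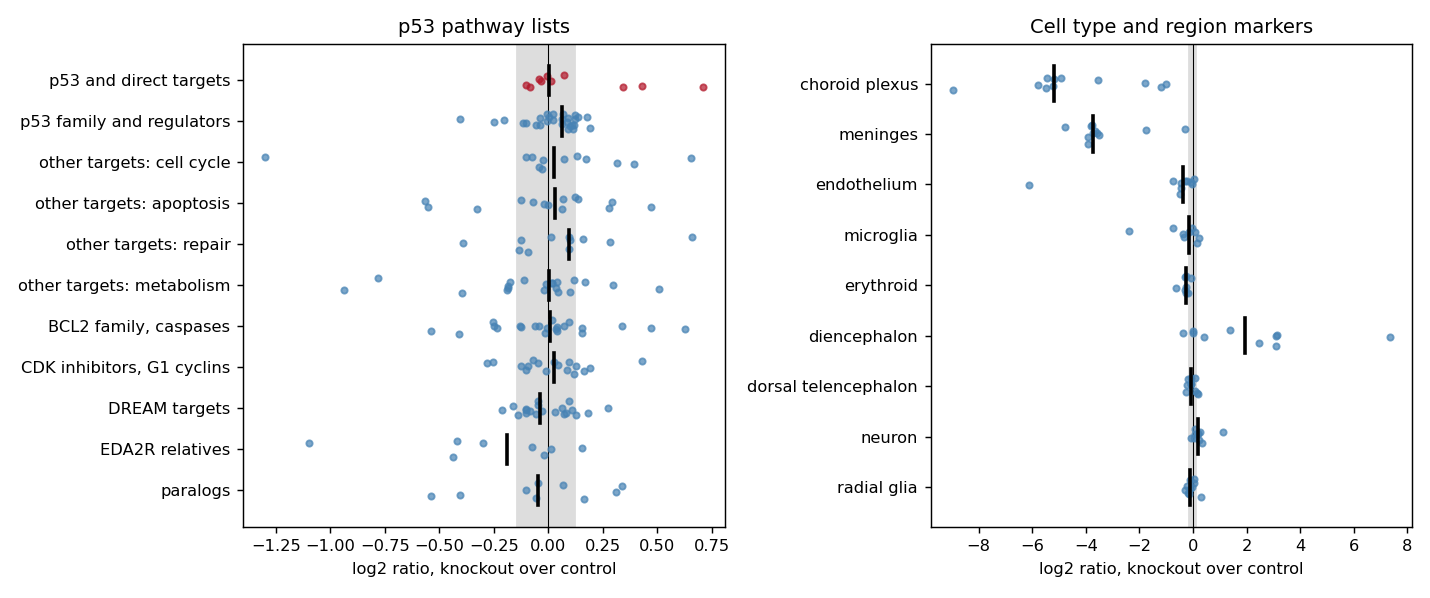
Log2 ratios of knockout over control for measured genes (dots) of the p53 pathway lists (left) and of cell type and region markers (right, on a wider axis), with the median of each list as a black bar. The grey band is the middle 50% of all measured genes, from -0.14 to 0.12. The median of the relatives of Eda2r, at -0.19, lies left of the band and those of the other pathway lists within it, whereas choroid plexus and meningeal markers lie to the left and diencephalic markers to the right; dots of genes at 0 reads in 1 library depend on the prior of 0.5 read.

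The gene annotation in the deposited table gave another view of the pathway. A biological process term that names p53 was attached to 8 of the 10 genes, not to Ccng1 or Trp53inp1, and to 109 other genes, 22 of them on the lists above. Of these 109 genes 87 were measured, with a median log2 ratio of 0.01. Among these 87, 1 was apart and higher in the knockout library and 5 lower, against 3.52% and 5.43% of all measured genes. Nothing particular to these terms is read from the counts. The 6 genes apart are named after their values were seen. Zfp385b, a zinc finger gene, had 91 reads in the knockout library and 52 in the control library, at 0.74 (0.24 to 1.27). Msx1, a homeobox gene, had 7 and 61 reads in knockout and control, at -3.09 (-4.55 to -2.05), and Hic1, a repressor gene and p53 target, 22 and 62 reads, at -1.53 (-2.32 to -0.83). Msx1 is also known from choroid plexus and meninges, whose marker sums are given above. Gm44597, Hipk4 and Ing4 were at -0.83 (-1.67 to -0.05), -1.02 (-2.31 to 0.11) and -0.63 (-1.49 to 0.18). Gm44597 and Ing4 lie at overlapping positions on the same strand of chromosome 6, so they may not be separate observations.

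In the authors' deposited table, 318 genes are marked as significant and 0 of the 10 genes are among them. Their adjusted p-values in the authors' deposited table run from 0.205 for Phlda3 to 0.934 for Eda2r for a test that no source used here describes. Exons of the 10 genes overlap those of 2 other annotated genes, Gm45808 with Bax (192 shared bases, 12.2% of Bax exons) and AC167363.2 on the strand opposite to Cdkn1a (273 bases, 7.68% of Cdkn1a exons), and neither has a row of its own in the table. No source used here says how reads in shared bases were counted, so the counts of Bax and Cdkn1a are uncertain to that extent.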

How the data were processed

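RNA was sequenced from knockout and control tissue, with 1 deposited column each, after Trizol extraction and TruSeq library preparation, per the labels' protocols. TopHat2 2.0.12, Bowtie2 2.2.3 and HTSeq 0.6.0 are listed without roles, with the build mm9, per the submitters' processing notes, yet 99.8% of deposited gene positions overlap the same gene in GENCODE M21 on GRCm38, so they are given as GRCm38. Raw read counts per gene were deposited, 1 column per genotype, per the file headers. The authors' CPM columns, in which 0 is entered as 0.5 read, were read but not used for results. The authors' deposited fold ratio and log2 columns are control over knockout. The authors' deposited p-value and adjusted p-value belong to a test that no source used here describes.

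Symbols were matched for 19616 of 19720 identifiers. Counts were scaled by TMM (edgeR 4.0.16, R 4.3.3). The log2 ratio is knockout over control with a prior of 0.5 read. Intervals, exact Poisson levels and exact conditional odds ratios used scipy 1.17.1 with Python 3.11.15, numpy 2.4.6, pandas 2.3.3 and matplotlib 3.10.9. The interval calculation was tested on simulated data. Named genes are the 10 members, H2afz and H2afv, the 4 of each pathway list furthest from 0 among measured genes, and markers at 0 reads; the 2 markers of each list with most reads, also in the rule, enter the sums only. Pairs and genes from annotation terms were added after values were seen. Members and lists were chosen with earlier results of these data known. With 1 library a genotype, likeness of pattern between genes was not ranked and no p-value was computed. Of 164 listed pathway symbols, 2 had no match in the reference names. Sequences are from RefSeq (GRCm38.p6).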

Additional observations from a re-analysis of the deposited data

How the results depend on the processing

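Alternatives were scaling by library total, by DESeq2 1.42.0 size factors, by upper quartile and by TMM without markers of other tissues, a prior of 5 reads, minimums of 100 reads and none, folds of 5 to 4 and of 2, and a 99% interval. Of 50 recomputed log2 ratios of the 10 genes, 50 lay inside the gene's main interval. Each alternative scaling shifts every log2 ratio by a shared amount, from -0.035 (library total) to 0.023 (DESeq2 size factors). These shifts are smaller than the reach of any of the 10 intervals, so scaling could not have moved a ratio outside. Bax changed sign to -0.02 by library total, and Eda2r to 0.02 by DESeq2 size factors. Phlda3 ranged from 0.63 (prior of 5 reads) to 0.73. The count of 1 of the 10 genes at least 1.5-fold higher became 0 with a minimum of 100 reads, 3 at a fold of 5 to 4 and 0 at a fold of 2. The count of 1 gene higher beyond counting error became 0 with a minimum of 100 reads and 0 with a 99% interval. Of the other pathway genes, 5 were at least 1.5-fold higher with no minimum (3 in the main setting), and 1 was lower with a minimum of 100 reads (4 in the main setting). By library total, 9 were higher and 20 lower beyond counting error, against 17 and 12 in the main setting. By DESeq2 size factors, 24 were higher and 10 lower. Of 177 alternative values, 9 moved, meaning a count more than 1.5-fold from its main value or a log2 ratio or median outside its main interval. Only Phlda3 was called apart among the 10 genes, so only its values could be labelled as reversed, and 0 were. This says nothing of the direction of the other values. A change of these counts with a higher minimum comes from fewer genes being counted. No paired analysis was possible because each genotype has 1 column of counts, and leaving out a replicate was likewise not possible. Depth limits Pmaip1, Eda2r and Phlda3 most, with 29, 57 and 84 reads in both libraries together.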
